A study of Mus musculus with 20 samples.

Results

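The 10 genes of MHC class I antigen presentation described here are H2-K1, H2-D1, B2m, Tap1, Tap2, Tapbp, Psmb8, Psmb9, Psmb10 and Nlrc5. They were chosen by name as the core of the pathway, with earlier results of these data known. Each occurs once among the 17294 rows of the acute gene table and the 16195 rows of the prolonged one. All 10 were thus measured at both times, and all 10 passed the filter on low values. The study sequenced poly(A) RNA of mouse jejunal epithelium, described in the series design as crypt epithelium, after induced loss of Kdm6a and Kdm6b, the demethylases that remove methyl groups from lysine 27 of histone H3. The acute groups, 7 days after ablation was induced, hold 7 Kdm6a/Kdm6b knockout (DKO) libraries and 5 control libraries labelled Control/WT. The prolonged groups, 5 months after it, hold 5 DKO and 3 control libraries. All 20 animals were female, and the labels call the libraries of a group biological replicates. The age of the animals, the recombinase and its driver, the floxed alleles and the inducing agent are not given in the sources used here, nor is whether the controls carried any of them.

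MHC class I molecules show the peptide content of a cell's cytosol to CD8+ T cells. Proteins are cut by the proteasome, whose constitutive catalytic subunits are exchanged for Psmb8, Psmb9 and Psmb10 in the immunoproteasome. The peptides are pumped into the endoplasmic reticulum by the transporter formed of Tap1 and Tap2, and are loaded with the help of tapasin (Tapbp) onto a heavy chain, H2-K1 or H2-D1, paired with beta-2 microglobulin (B2m). Interferons induce the whole set, and Nlrc5 is the transactivator that drives transcription of class I genes through a shared promoter element, the SXY module. In the small intestine, class I on epithelial cells faces a dense layer of intraepithelial T cells.

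The promoters of H2-K1, H2-D1 and B2m, and the stretch between Psmb9 and Tap1, are shown because Nlrc5, interferon regulatory factors and NF-kB are known to act on class I promoters. They are RefSeq sequences of build GRCm38.p6. A window was found for 8 of the 10 genes, and Tap2 and Nlrc5 are named only. The first 3 sequences are the 200 bases before the annotated start, for H2-K1 the upstream of its 2 starts. The last is the whole 225 bases between the starts of Psmb9, which points left, and Tap1, which points right. All are 5′ to 3′, and capitals mark matches, on either strand, to TGACG (the core of the X2 box), ATTGG (the inverted CCAAT of the Y box), AANNGAAA (an interferon regulatory factor core) and TGGGGATTCCCCA, the longest inverted repeat before the H2-K1 start, which holds the kappa-B type element that NF-kB binds.
H2-K1, chr17:34000348-34000547, minus strand: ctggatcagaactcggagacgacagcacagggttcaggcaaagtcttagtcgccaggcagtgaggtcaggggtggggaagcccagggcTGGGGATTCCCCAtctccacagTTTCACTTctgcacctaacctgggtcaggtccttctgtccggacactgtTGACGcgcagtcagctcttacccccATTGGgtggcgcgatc
H2-D1, chr17:35262894-35263093, plus strand: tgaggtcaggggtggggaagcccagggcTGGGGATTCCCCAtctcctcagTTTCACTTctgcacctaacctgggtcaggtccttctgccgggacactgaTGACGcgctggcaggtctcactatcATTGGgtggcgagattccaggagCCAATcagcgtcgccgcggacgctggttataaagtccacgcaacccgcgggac
B2m, chr2:122147487-122147686, plus strand: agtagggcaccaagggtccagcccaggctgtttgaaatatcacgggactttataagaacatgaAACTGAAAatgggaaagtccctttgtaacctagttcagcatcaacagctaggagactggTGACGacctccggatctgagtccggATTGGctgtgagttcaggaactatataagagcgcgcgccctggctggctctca
Psmb9 to Tap1, chr17:34187331-34187555, plus strand: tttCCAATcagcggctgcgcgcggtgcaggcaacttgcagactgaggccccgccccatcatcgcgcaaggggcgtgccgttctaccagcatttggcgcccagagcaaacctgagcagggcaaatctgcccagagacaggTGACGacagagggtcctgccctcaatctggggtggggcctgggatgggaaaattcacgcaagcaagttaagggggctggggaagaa
No match overlaps another in these sequences.

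Over the 250 bases before the start, TGACG was present for 5 of the 8 genes and in 17.9% of 27025 mouse promoters. ATTGG was present for 6 of 8 genes and in 34.5% of promoters, and AANNGAAA for 3 of 8 genes and in 21.6% of promoters. The TGACG and ATTGG matches of Tap1 and Psmb9 are the same sites in the stretch between them, so each is counted for both genes. The repeat TGGGGATTCCCCA, which was taken from the H2-K1 window, was also found for H2-D1 and in 0.0111% of promoters. In H2-K1, H2-D1 and B2m, TGACG and ATTGG start exactly 25 bases apart, at -41 and -16 in H2-K1, -101 and -76 in H2-D1, and -78 and -53 in B2m, counted back from the start site. That spacing occurs in 0.0925% of promoters. It was picked after these windows had been read, so the share is a description. Psmb9, Tap1, Psmb8 and Tap2 are neighbours in that order on chromosome 17, inside the MHC, so the 4 genes are linked by position as well as by pathway.

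The libraries hold between 19134272 and 26586045 reads in genes in acute DKO, 15435118 and 26549494 in acute control, 12560843 and 20612206 in prolonged DKO, and 9914738 and 23181576 in prolonged control epithelium. Kdm6a averaged 42.5 ± 2.73 CPM (reads of a gene scaled so that every library has the same total) in acute DKO and 66.1 ± 6.62 CPM in acute control libraries (SD, n = 7 and 5), and 49.1 ± 3.93 CPM in prolonged DKO against 76.2 ± 5.95 CPM in prolonged control libraries (SD, n = 5 and 3). Kdm6b averaged 70.4 ± 8.87 against 101 ± 6.71 CPM at 7 days and 76.3 ± 4.98 against 102 ± 3.85 CPM at 5 months, DKO before control. At each time no DKO library reached the lowest control for either targeted gene. These values count reads over the whole gene, and the deleted exons are not given in the sources used here. Acute DKO 3 and acute DKO 4 stood apart from the other 10 acute libraries on the first principal component, at 34.0 and 45.9 against -28.0 to 12.1, so acute results are also given without them, members that did not pass included. The summed CPM of 10 epithelial markers was 9838 to 11197 in acute DKO, 10097 to 10659 in acute control, 10059 to 10829 in prolonged DKO and 9743 to 10115 in prolonged control libraries.

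All 10 class I genes had higher mean CPM in DKO than in control epithelium at both times. At 7 days, H2-K1, H2-D1, Tap2 and Tapbp passed the test, and at 5 months all but B2m did. A gene was called at a limma adjusted p under 0.05, over all genes tested, and log2 fold changes below are log2(CPM + 1) in DKO less that in control epithelium, with their SE. At 7 days 4 of 10 members were called higher, where 2.90% of 13601 tested genes were, and 0 of 10 lower, where 12.1% were. At 5 months 9 of 10 were called higher, where 5.74% of 13316 were, and 0 of 10 lower, where 8.94% were. The members were chosen with earlier results of these data known, so these counts and shares are descriptions. The median log2 fold change of the 10 members was 0.27 at 7 days, against -0.07 over all genes tested, and 0.49 at 5 months, against 0.00151 over all genes tested. At 7 days 35.4% of all tested genes had a positive fold change, and at 5 months 50.4% had one. H2-K1, H2-D1, Tap2 and Tapbp were called higher at both times, as were 1.70% of the 13088 genes tested at both. In the authors' deposited table, from DESeq2, the same 4 and 9 members have an adjusted p under 0.05, with acute log2 fold changes of 0.64 for H2-K1, 0.53 for H2-D1, 0.41 for Tap2 and 0.37 for Tapbp. On the recovered reads edgeR called 3 acute members and missed H2-D1 (0.52, edgeR adjusted p = 0.0510). In bulk RNA, more cells with a transcript and more transcript per cell cannot be told apart.

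**Figure D1:**
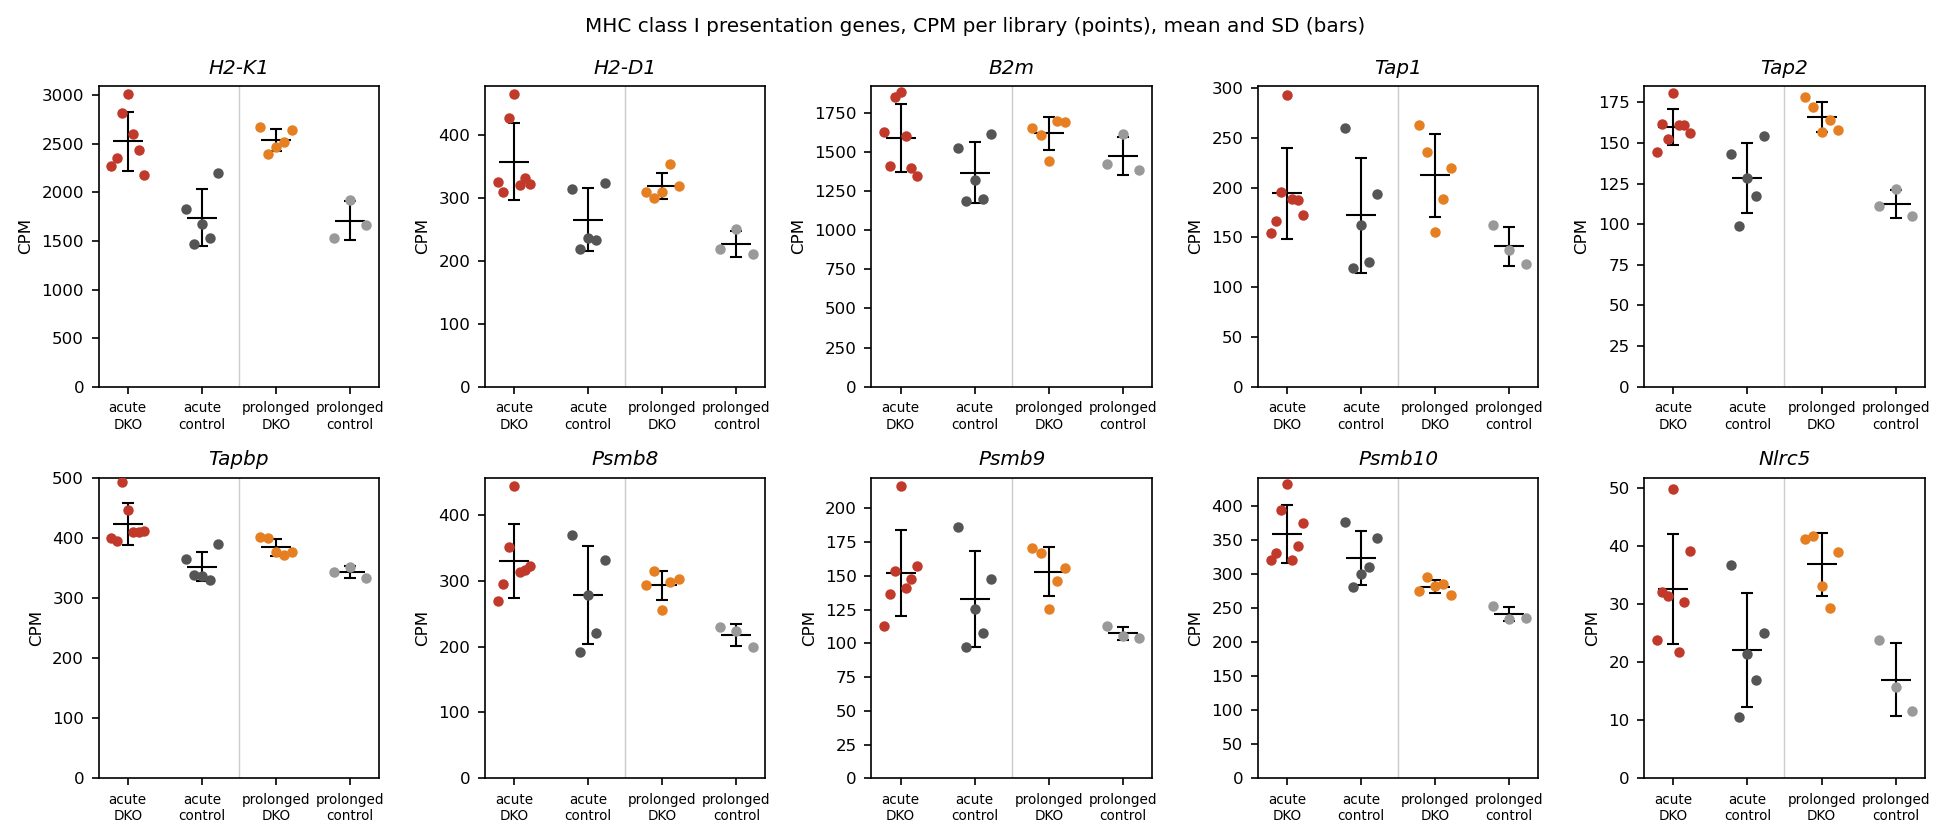
CPM of each of the 10 class I genes in all 20 libraries (1 point a library, bar at the group mean, vertical axis from 0), with DKO left of control at each time. At 5 months the DKO and control points do not overlap for 8 genes (not B2m or Tap1). At 7 days they separate for Tapbp alone.

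H2-K1, a classical heavy chain that carries peptide to the cell surface, ranged from 2182 to 3017 CPM in acute DKO libraries (median 2434), against 1833, 1474, 1670.5, 1536 and 2197 CPM in acute control libraries. All but 1 of the 7 acute DKO libraries lay above the highest control. Its log2 fold change was 0.54 ± 0.11 (limma adjusted p = 0.00655). At 5 months H2-K1 stood at 2670.3, 2393, 2471, 2519 and 2640.5 CPM in DKO, against 1532, 1927 and 1663 CPM in control libraries. The groups did not overlap, and the log2 fold change was 0.58 ± 0.08 (limma adjusted p = 0.000874), or 1.49 times as a ratio of means. Without acute DKO 3 and 4 the acute fold change was 0.46 (limma adjusted p = 0.0149).

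H2-D1, the other classical heavy chain, ranged from 310.1 to 465 CPM in acute DKO libraries (median 326), against 314, 219, 236, 233 and 324 CPM in acute control libraries. The acute groups overlapped, with 4 of 7 DKO libraries above the highest control. Its log2 fold change was 0.43 ± 0.13 (limma adjusted p = 0.0368). This call was not kept without acute DKO 3 and 4, where the fold change was 0.30 (limma adjusted p = 0.0795), nor without acute control 2, 3 or 4, acute DKO 1 or acute DKO 3 alone (limma adjusted p from 0.0513 to 0.104). At 5 months H2-D1 was at 309.9, 301, 309.9, 354 and 319 CPM in DKO, against 219, 251 and 212 CPM in control libraries. These groups did not overlap, and the log2 fold change was 0.49 ± 0.07 (limma adjusted p = 0.000726). H2-K1 and H2-D1 share long near-identical stretches with each other and with other class I heavy chains, so reads may have been divided among these genes in a way the files do not show.

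B2m, the light chain that class I heavy chains need, was the only member to pass the test at neither time. It ranged from 1346 to 1885 CPM in acute DKO libraries (median 1600.2), against 1524, 1187, 1318, 1196 and 1613 CPM in acute control libraries, and the groups overlapped. At 5 months it was at 1653, 1605, 1444, 1699 and 1691 CPM in DKO, against 1422, 1613 and 1383 CPM in control libraries. There 3 of 5 DKO libraries lay above the highest control. The log2 fold changes were 0.21 ± 0.11 at 7 days (limma adjusted p = 0.224) and 0.14 ± 0.08 at 5 months (limma adjusted p = 0.278), and neither passed the test. Without acute DKO 3 and 4 the acute value was 0.12. The 95% intervals of the log2 fold change ran from -0.02 to 0.45 at 7 days and from -0.03 to 0.30 at 5 months.

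Tap1 and Tap2 encode the subunits of the peptide transporter, and only Tap2 passed the test at both times. Tap2 ranged from 145 to 181 CPM in acute DKO libraries (median 161), against 143, 99.1, 129, 117 and 154 CPM in acute control libraries. Of the 7 DKO libraries, 5 were above the highest control, and the log2 fold change was 0.33 ± 0.09 (limma adjusted p = 0.0319). That acute call was also lost without acute DKO 3 and 4, at a fold change of 0.30 (limma adjusted p = 0.0664), and without acute control 2, 3 or 4 or acute DKO 2 alone (limma adjusted p from 0.0513 to 0.0873). At 5 months Tap2 was at 178, 172, 156, 164 and 158 CPM in DKO, against 111, 122 and 105 CPM in control libraries. The groups were well apart, the lowest DKO library lying above the highest control, and the log2 fold change of 0.56 ± 0.06 had the smallest adjusted p of the 10 members (limma, 0.000148).

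Tap1 varied more between libraries of the same group. It ranged from 154 to 293 CPM in acute DKO libraries (median 187), against 259.8, 119, 163, 126 and 193 CPM in acute control libraries. Only acute DKO 4 lay above acute control 1, and the log2 fold change of 0.20 ± 0.19 did not pass the test (limma adjusted p = 0.528). It was 0.07 without acute DKO 3 and 4, 0.10 without DKO 4 alone, 0.09 without acute control 2, 0.11 without acute control 4 and 0.37 without acute control 1, and passed in none of these. At 5 months Tap1 was at 263, 236, 155, 189 and 219.6 CPM in DKO, against 162, 137 and 123 CPM in control libraries. Prolonged DKO 3 fell among the controls and the other 4 DKO libraries lay above them. The log2 fold change was 0.57 ± 0.14 (limma adjusted p = 0.0204), a call that was lost without prolonged control 2 (limma adjusted p = 0.0595) or control 3 (limma adjusted p = 0.105).

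Tapbp, tapasin, holds the empty class I molecule at the transporter. It ranged from 394 to 492 CPM in acute DKO libraries (median 409.6), against 365, 339, 337, 330.3 and 389 CPM in acute control libraries. It was the only member whose acute groups did not overlap, where every DKO library was above every control for 1.24% of tested genes and below every control for 6.55%. The log2 fold change was 0.26 ± 0.06 (limma adjusted p = 0.0151), and 0.20 without acute DKO 3 and 4 (limma adjusted p = 0.0303). At 5 months Tapbp was at 401, 399, 376, 371 and 377 CPM in DKO, against 344, 352 and 333 CPM in control libraries. The groups again did not overlap, but the difference was small, at 0.16 ± 0.05 (limma adjusted p = 0.0434), and the call was lost when any 1 of the 8 prolonged libraries was left out (limma adjusted p from 0.0516 to 0.188).

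**Figure D2:**
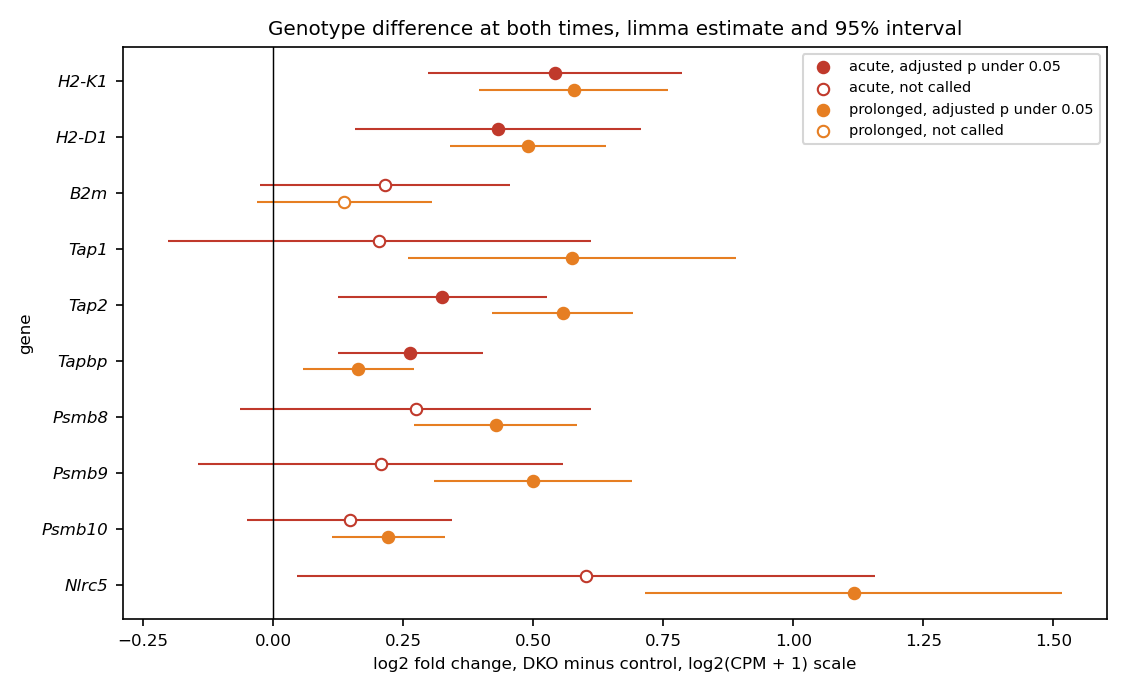
Log2 fold change of each class I gene, as mean log2(CPM + 1) in DKO less that in control, with its 95% interval, at 7 days and at 5 months; filled points passed the test. All 20 estimates lie above 0, and Nlrc5 at 5 months is the highest at 1.12.

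Psmb8, Psmb9 and Psmb10 replace the constitutive catalytic subunits Psmb5, Psmb6 and Psmb7 when the immunoproteasome is assembled. None of the 3 passed the test at 7 days, and all 3 rose at 5 months. Psmb8 ranged from 269 to 444 CPM in acute DKO libraries (median 316), against 369, 191, 278, 220.2 and 332 CPM in acute control libraries. Only acute DKO 4 exceeded the highest control, and the log2 fold change was 0.27 ± 0.16 (limma adjusted p = 0.273). It was 0.16 without acute DKO 3 and 4 and 0.15 without acute control 2. At 5 months Psmb8 was at 294, 314, 255, 298 and 303 CPM in DKO, against 230.3, 223 and 199 CPM in control libraries. The groups did not overlap, and the log2 fold change was 0.43 ± 0.07 (limma adjusted p = 0.00244).

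Psmb9 ranged from 113 to 217 CPM in acute DKO libraries (median 147), against 186, 97.5, 125, 108 and 148 CPM in acute control libraries, and again only acute DKO 4 exceeded the highest control. At 5 months it was at 171, 167, 126, 146 and 156 CPM in DKO, against 113, 105 and 104 CPM in control libraries, with no overlap. The log2 fold changes were 0.21 ± 0.16 (limma adjusted p = 0.450) and 0.50 ± 0.09 (limma adjusted p = 0.00302). The acute value was 0.09 without acute DKO 3 and 4, 0.12 without DKO 4 alone, 0.10 without acute control 2 and 0.34 without acute control 1. The acute spread among DKO libraries was about as wide as that among controls, with an SD of 32.0 CPM in DKO and 35.5 CPM in control libraries. Psmb10 ranged from 320.1 to 431 CPM in acute DKO libraries (median 341), against 376, 281, 299.8, 309.6 and 353 CPM in acute control libraries. At 5 months it was at 275, 295, 282, 285 and 269 CPM in DKO, against 253, 234 and 236 CPM in control libraries. These prolonged groups did not overlap, and the fold changes of Psmb10 were 0.15 ± 0.09 (limma adjusted p = 0.317) and 0.22 ± 0.05 (limma adjusted p = 0.0118). The acute Psmb10 value was 0.06 without acute DKO 3 and 4 and 0.10 without acute control 2. Without prolonged control 3 the Psmb10 call was lost (limma adjusted p = 0.0681).

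The constitutive counterparts did not rise. At 7 days the log2 fold changes were -0.15 ± 0.07 for Psmb5, which did not pass the test (limma adjusted p = 0.152), -0.20 ± 0.05 for Psmb6 (limma adjusted p = 0.0142) and -0.20 ± 0.06 for Psmb7 (limma adjusted p = 0.0479). At 5 months they were -0.02 ± 0.08, -0.10 ± 0.05 and -0.09 ± 0.05, and none passed. Over all tested genes the median acute log2 fold change was -0.07 with CPM and 0.01 with TMM-scaled CPM. How far the acute falls of these subunits rest on the scaling was not tested. The ratio of the CPM of each immunoproteasome subunit to that of its counterpart does not depend on how a library is scaled, and was described without a test. Transcript lengths differ, so a ratio is read between groups and not as a share of proteasomes.

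Psmb10 to Psmb7 averaged 3.26 ± 0.20 in acute DKO (range 3.0 to 3.54) and 2.57 ± 0.24 in acute control libraries (range 2.34 to 2.83), and 3.0 ± 0.22 in prolonged DKO against 2.42 ± 0.09 in prolonged control libraries. The groups did not overlap at either time. Psmb9 to Psmb6 averaged 1.24 ± 0.21 in acute DKO and 0.953 ± 0.264 in acute control libraries, which overlapped, and 1.51 ± 0.21 in prolonged DKO against 0.988 ± 0.051 in prolonged control libraries, which did not. Psmb8 to Psmb5 averaged 9.20 ± 0.99 in acute DKO and 6.97 ± 1.64 in acute control libraries, and 9.76 ± 1.27 in prolonged DKO against 7.12 ± 0.94 in prolonged control libraries, with overlap at both times (all SD, n = 7 and 5, then 5 and 3). All 3 ratios were thus higher on average in DKO epithelium at both times. At 7 days part of each difference lies in the lower constitutive subunit. Acute log2 fold changes were -0.15, -0.20 and -0.20 for Psmb5, Psmb6 and Psmb7, against 0.27, 0.21 and 0.15 for Psmb8, Psmb9 and Psmb10. Without acute DKO 3 and 4 the acute differences of log2 ratios were 0.35, 0.30 and 0.31 for Psmb8, Psmb9 and Psmb10, against 0.43, 0.41 and 0.35 with them.

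**Figure D3:**
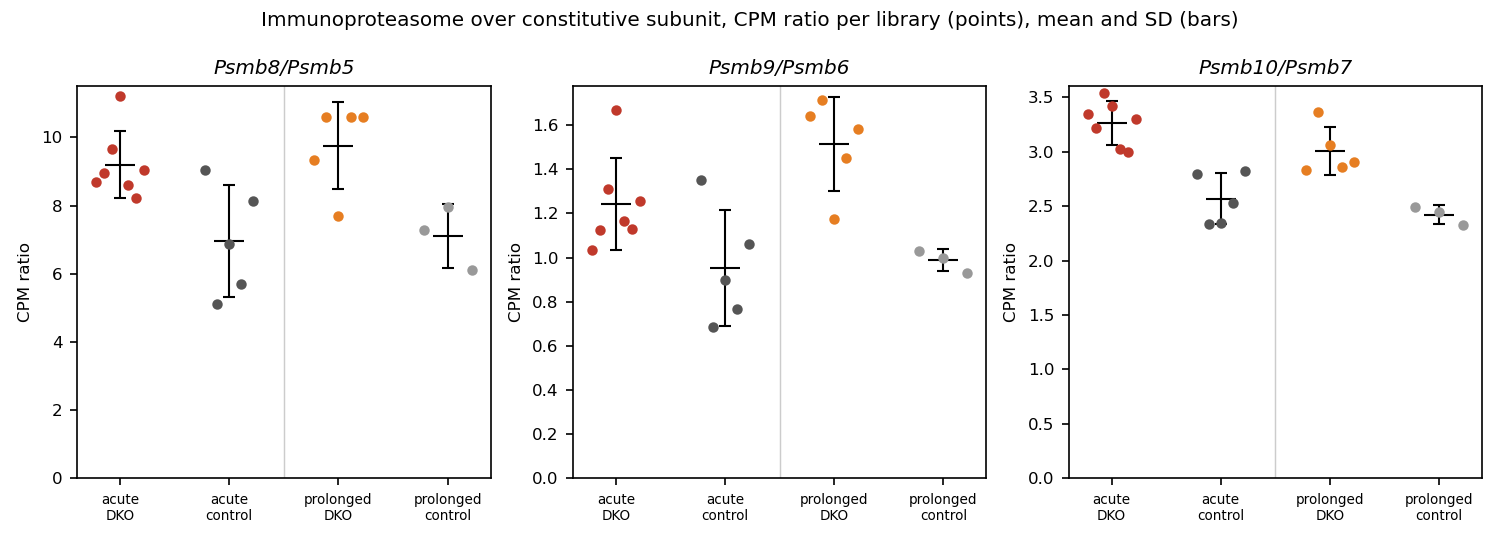
CPM ratio of each immunoproteasome subunit to its constitutive counterpart in each library (point), with the group mean (bar), DKO left of control at each time. Psmb10 to Psmb7 does not overlap between DKO and control libraries at either time.

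Nlrc5, the class I transactivator, had the largest fold change of the members at 5 months and the lowest CPM. It ranged from 21.7 to 49.8 CPM in acute DKO libraries (median 31.4), against 36.8, 10.5, 21.4, 16.8 and 25.1 CPM in acute control libraries. The acute groups overlapped widely, with 2 of 7 DKO libraries above the highest control, and the log2 fold change of 0.60 ± 0.26 did not pass the test (limma adjusted p = 0.140). It passed in 1 of 25 settings, without acute control 1, at 0.81 (limma adjusted p = 0.0495), and was 0.38 without acute control 2 (limma adjusted p = 0.309) and 0.47 without acute DKO 3 and 4 (limma adjusted p = 0.278). At 5 months Nlrc5 was at 41.2, 41.7, 33.1, 29.3 and 39.0 CPM in DKO, against 23.7, 15.8 and 11.5 CPM in control libraries. The groups did not overlap, the log2 fold change was 1.12 ± 0.18 (limma adjusted p = 0.00215), and the ratio of means was 2.17. At that time every DKO library was above every control for 8 of the 10 members and for 8.82% of all tested genes, and below every control for none of the members and for 11.7% of all tested genes.

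Whether the genotype effect differed between the times was tested as the difference of the differences, prolonged minus acute, in 1 model of all 20 libraries. No member passed (limma adjusted p from 0.859 to 0.963), nor did any of the 13088 genes (0% called; 608 had an unadjusted p under 0.05, edgeR called 0 and DESeq2 8). For Nlrc5 the difference was 0.51, with a 95% interval from -0.28 to 1.31. For Tap1 it was 0.37 (-0.22 to 0.96), for Psmb9 0.29 (-0.18 to 0.77) and for Tap2 0.23 (-0.04 to 0.50). For H2-K1 it was 0.04 (-0.29 to 0.36), for H2-D1 0.06 (-0.31 to 0.42) and for B2m -0.08 (-0.40 to 0.24). For Psmb8 it was 0.15 (-0.29 to 0.60), for Psmb10 0.07 (-0.18 to 0.33) and for Tapbp -0.10 (-0.28 to 0.08). The 3 values nearest 0, those of H2-K1, H2-D1 and Psmb10, turned negative with TMM or size factor scaling. The larger number of calls at 5 months is therefore not shown to be a larger effect. Each of the 10 members had a larger SD at 7 days than at 5 months in both genotypes. Nlrc5, for example, had an SD of 9.51 CPM in DKO and 9.85 CPM in control libraries at 7 days, and of 5.42 CPM in DKO and 6.21 CPM in control libraries at 5 months.

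Libraries of the same group differed in the level of the class I genes as a set. After the group mean was taken from each gene, the members had a correlation with the mean of the other 9 members of 0.698 (Tapbp) to 0.975 (Psmb8) over the 20 libraries, and of 0.611 to 0.970 without acute DKO 3 and 4. Of all pairs, Tap1 and Psmb9, which share the short stretch shown above, were the closest (r = 0.953), and H2-K1 and Nlrc5 the least close (r = 0.405). These correlations are across libraries that share a group mean and the same scaling, and are given as descriptions. Averaged over members, acute DKO 4 was 0.37 above its group mean on the log2 scale, with all 10 members above it, acute control 1 was 0.34 above and acute control 5 was 0.25 above, each with 10 of 10 members. Acute control 2 was 0.35 below its group mean and acute control 4 was 0.20 below, both with 0 of 10 members above. Acute DKO 1 was 0.20 below with 1 member above. In the prolonged groups no library was farther than 0.14 from its group mean.

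**Figure D4:**
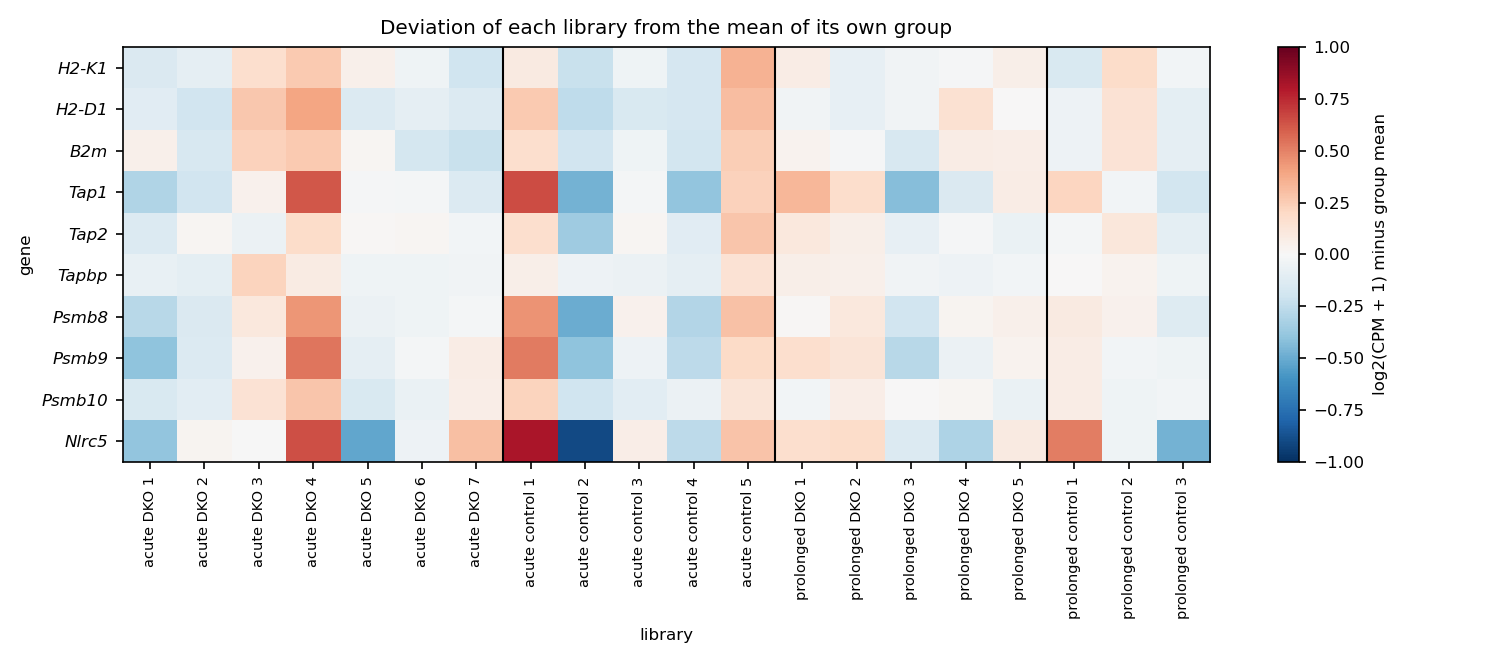
Deviation of each class I gene from its group mean in every library, in log2(CPM + 1) units as colour (red above, blue below), genes down and libraries across, DKO left of control at each time. The members move together, with acute DKO 4 and acute controls 1 and 5 high and acute controls 2 and 4 low.

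Of 13078 other genes, the 8 whose within-group deviations were most like the mean of the members over 20 libraries were Pla2g16 (r = 0.925), Igtp (0.912), Gm12250 (0.901), Ubd (0.896), Ifi44 (0.885), Helz2 (0.882), Nmi (0.881) and Gm5431 (0.881). The median r over all other genes was -0.174. Without acute DKO 3 and 4 the r values of these 8 were between 0.829 and 0.911, and 4 of the 8 stayed among the 8 most alike. Likeness within groups did not go with a genotype difference in every case. Igtp, Gm12250 and Ifi44 were called higher in prolonged DKO epithelium, whereas Pla2g16 had log2 fold changes of 0.07 at 7 days and 0.11 at 5 months, and Ubd of 0.45 and -0.97, none of which passed.

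The acute labels carry animal numbers that were grouped into runs of close numbers, and what a run marks is not given. The numbers of acute control 4 and DKO 6 are less close than those within the other runs. Within the run of acute control 2, control 3 and DKO 5, all 10 members were higher in DKO, by 0.14 to 0.73 on the log2 scale, and within that of acute control 4 and DKO 6 all 10 were higher, by 0.14 to 0.82. Within the run of acute control 1 and DKO 1, 2 and 7, H2-K1 was higher in DKO by 0.31, Tapbp by 0.14, Tap2 by 0.10 and H2-D1 by 0.02. In that run the other 6 members were lower in DKO, with log2 differences of -0.66 for Tap1, -0.47 for Psmb9, -0.32 for Psmb8, -0.24 for Nlrc5, -0.14 for Psmb10 and -0.07 for B2m. The remaining acute libraries fall into runs of 1 genotype only. Acute DKO 3 and 4 carry neighbouring numbers with no control beside them, so for these libraries run and genotype cannot be told apart. Each run with both genotypes holds 1 or 2 controls, so these are values with no test. The pooled acute direction of those 6 genes does not hold in every run. With the runs as blocks in the fit, H2-K1 (0.55) and Tapbp (0.23) passed, and H2-D1 (0.32, limma adjusted p = 0.0531) and Tap2 (0.34, limma adjusted p = 0.0691) did not. The other members had smaller values in that fit than without the blocks, at 0.29 for Nlrc5, 0.16 for Psmb8, 0.16 for B2m, 0.05 for Psmb9, 0.04 for Tap1 and 0.03 for Psmb10 (limma adjusted p from 0.382 to 0.926).

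Other parts of the pathway were read from lists chosen with earlier results of these data known. Among class I heavy chains outside the members, most of them nonclassical, 4 of 15 tested genes were higher and 0 lower in acute DKO epithelium, and 6 of 14 were higher and 0 lower in prolonged DKO epithelium. Over all tested genes 2.90% were higher and 12.1% lower at 7 days, and 5.74% and 8.94% at 5 months. These shares apply to every list below. H2-Q10 averaged 22.2 ± 6.43 CPM in acute DKO and 11.4 ± 3.68 CPM in acute control libraries (log2 fold change 0.92 ± 0.20, limma adjusted p = 0.00841), and 12.3 ± 2.18 against 4.77 ± 0.0894 CPM at 5 months (1.19 ± 0.13, limma adjusted p = 0.000155). H2-T23, which encodes Qa-1, the ligand of an inhibitory receptor of NK cells, averaged 421 ± 36.2 CPM in acute DKO and 326 ± 39.6 CPM in acute control libraries (0.37 ± 0.08, limma adjusted p = 0.00808). It was also called higher at 5 months (0.31 ± 0.06, limma adjusted p = 0.00698). H2-Q4 (0.44 and 0.59) and H2-Q1 (0.41 and 0.25) were called higher at both times, and H2-Q5 (0.94) and H2-Bl (0.33) at 5 months. Near-identical copies among these genes make the split of reads uncertain.

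The general chaperones and trimming enzymes of peptide loading, such as Calr, Canx, Pdia3 and Erap1, gave 0 calls in either direction among 14 genes at both times, with a median log2 fold change of -0.03 at each. The list of constitutive 20S proteasome subunits and the assembly factor Pomp holds 15 genes. At 7 days 0 were called higher and 3 lower, Psmb6, Psmb7 and Psma4 (-0.18), where 12.1% of all tested genes were lower. Whether these falls hold under another scaling was not tested. At 5 months 0 of the 15 were called. Of the 3 genes of the PA28 proteasome activators, 0 were called at 7 days. At 5 months Psme1 (0.25 ± 0.05, limma adjusted p = 0.00737) and Psme2 (0.16 ± 0.05, limma adjusted p = 0.0447), the subunits that interferon induces, rose and Psme3 did not pass.

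Of a list of 23 transcription factors and other regulators of class I genes or their inducers, 2 were higher and 3 lower at 7 days. At 5 months 3 were higher and 3 lower. Over all tested genes 2.90% were higher and 12.1% lower at 7 days, and 5.74% and 8.94% at 5 months. The number of regulators lower at 7 days was near that share. Irf7, the interferon regulatory factor of type I interferon production, averaged 130.0 ± 22.1 CPM in acute DKO and 83.4 ± 13.5 CPM in acute control libraries (0.63 ± 0.12, limma adjusted p = 0.00375), and rose by 0.53 ± 0.10 at 5 months (limma adjusted p = 0.00331). Stat2, which acts below the type I and III interferon receptors, rose by 0.61 ± 0.17 (limma adjusted p = 0.0281) and 0.55 ± 0.10 (limma adjusted p = 0.00460). Irf3, a factor activated by viral nucleic acid sensing, rose by 0.18 ± 0.05 at 5 months (limma adjusted p = 0.0328). Irf1, an interferon-gamma induced activator of class I promoters, had log2 fold changes of 0.05 (limma adjusted p = 0.836) and 0.42 ± 0.14 (limma adjusted p = 0.0682). Rfx5, which binds the X box together with Nlrc5, had fold changes of -0.10 and 0.16, and Ciita, the class II transactivator, of -0.13 and 0.30, and none of these passed. The genes that fell were Ezh2 (-0.36), Nfyb (-0.27) and Atf1 (-0.26) at 7 days, and Relb (-0.62), Nfyb (-0.30) and Nfya (-0.27) at 5 months. Ezh2 is a histone methyltransferase and not a transcription factor, and Nfya and Nfyb are subunits of the factor that binds the CCAAT box.

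Among 12 tested interferon receptor, kinase and feedback genes, 3 were called higher at 7 days, Jak2 (0.33), Ifnlr1 (0.29) and Il10rb (0.27), the last pair forming the receptor of interferon lambda, and Jak2 (0.24) alone at 5 months. Of 51 tested interferon-induced genes, 22 were higher and 0 lower at 7 days, with a median log2 fold change of 0.61, and 28 were higher and 0 lower at 5 months, with a median of 0.52. The largest called were Oas2 (1.48), Oas3 (1.41), Herc6 (1.23) and Ifit1 (1.15) at 7 days, and Iigp1 (2.12), Gbp2 (2.03), Tgtp2 (1.43) and Igtp (1.41) at 5 months. Of MHC class II genes, 0 of 11 were called at 7 days, and 6 of 10 were higher at 5 months, among them H2-Ab1 (0.48), H2-Aa (0.46), H2-Eb1 (0.42) and H2-DMb1 (0.29). Over all tested genes 2.90% were called higher at 7 days and 5.74% at 5 months.

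**Figure D5:**
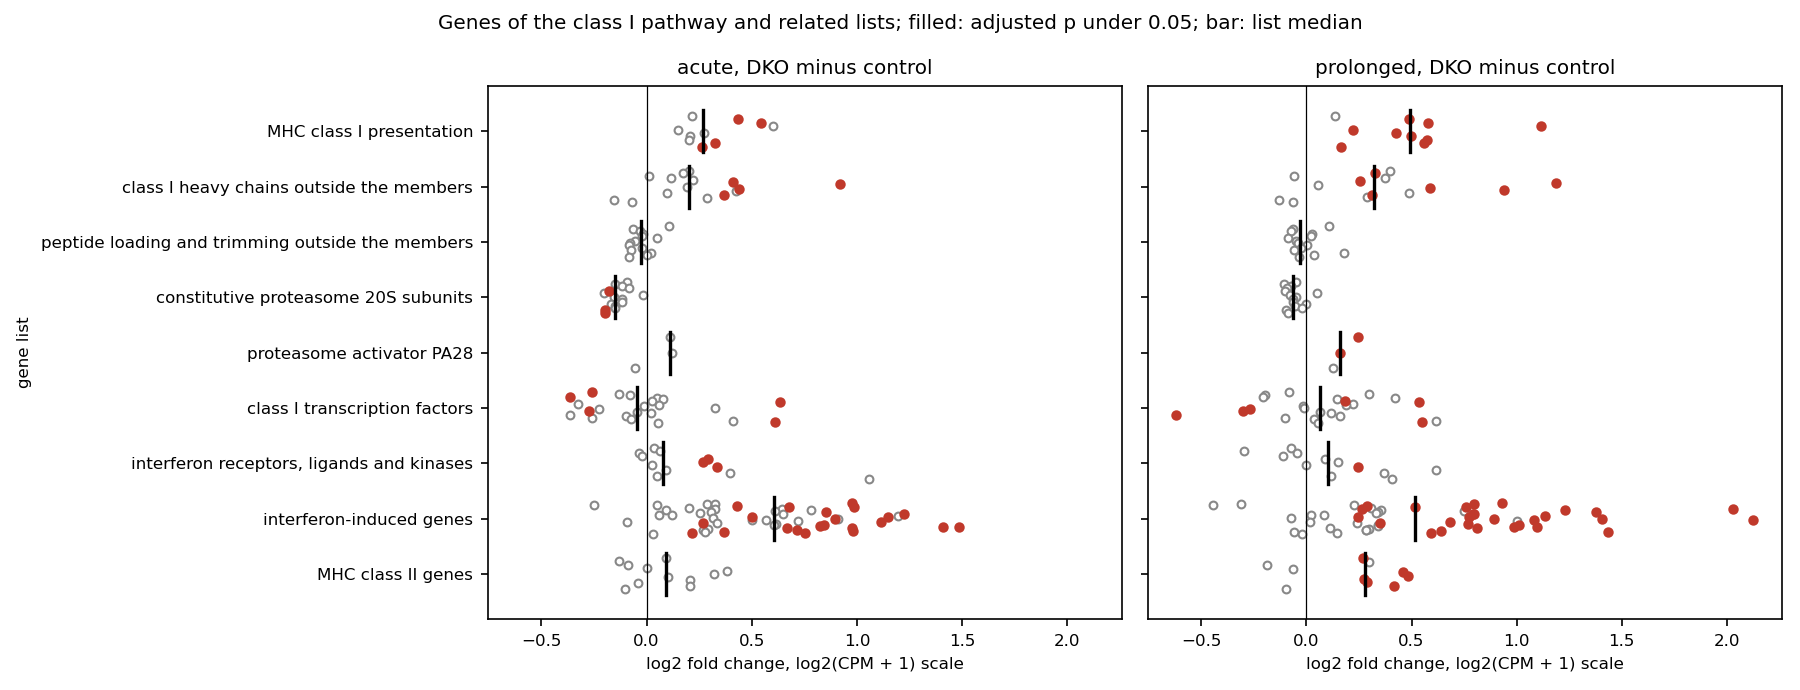
Log2 fold change (mean log2(CPM + 1) in DKO less that in control) of every tested gene in each list at 7 days (left) and 5 months (right), with filled points for genes that passed the test and a bar at the list median. The class I genes and the interferon-induced genes lie mostly above 0, and the constitutive proteasome and peptide loading genes lie around or below it.

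Markers of other cells were summed in each library, since immune cells also carry class I. Of the T and NK cell markers 0 of 17 tested were called at 7 days and 0 of 16 at 5 months. Their log2 fold changes were positive for 14 of 17 at 7 days (median 0.12) and for 16 of 16 at 5 months (0.12 to 0.43, median 0.28). Their sum ran from 346 to 1084 CPM in acute DKO (median 853), 573 to 988 in acute control (median 706), 489 to 1161 in prolonged DKO (median 713) and 373 to 796 in prolonged control libraries (median 585). The acute DKO libraries with the highest mean deviation of the members, DKO 4 and DKO 3, had the lowest and the highest T and NK sum of their group, 346 and 1084 CPM. In acute DKO 1, 2, 5, 6 and 7, in rising order of mean deviation, the sums rose too, at 784, 833, 853, 1063 and 1081 CPM. In acute controls 1, 5, 3, 4 and 2, in falling order of mean deviation, they were 825, 573, 988, 706 and 613 CPM. At 5 months the DKO library with the lowest mean deviation, DKO 3, had the highest sum of its group, 1161 CPM. Of the controls, control 1 had the highest mean deviation (0.070, against 0.051 in control 2) and the highest sum, 796 CPM. Control 2 was nevertheless the highest control for H2-K1, H2-D1, B2m, Tap2 and Tapbp. Control 3 had the lowest mean deviation and the lowest sum, 373 CPM. Sums of 15 myeloid markers ran from 66.3 to 654 CPM in acute DKO against 63.3 to 368 CPM in acute control libraries, and from 59.6 to 75.6 against 48.0 to 64.3 CPM at 5 months over the 13 measured, where Itgam (0.37) and Tyrobp (0.51) were called higher of 10 tested. B and plasma cell sums reached at most 27.8 CPM in any library, and those of endothelial markers at most 7.26 CPM. Fibroblast and muscle markers ran from 35.2 to 707 CPM in acute DKO, with the highest in DKO 3, against 45.0 to 208 CPM in acute control libraries, and from 18.1 to 30.9 against 15.3 to 18.4 CPM at 5 months. Within the epithelium, 12 of 12 markers of proliferating crypt cells were called lower in acute DKO and 11 of 12 in prolonged DKO libraries. Their sums were 717 to 1005 against 1139 to 1553 CPM at 7 days and 1093 to 1315 against 1486 to 1797 CPM at 5 months. Paneth cell markers were called lower for 5 of 6 genes at each time and stem cell markers for 4 and 2 of 8, and no gene of either list had a positive fold change. Over all tested genes 12.1% were called lower at 7 days and 8.94% at 5 months. Paneth sums were 696 to 3760 against 4268 to 8798 CPM at 7 days and 1876 to 7051 against 7215 to 7896 CPM at 5 months. Stem cell sums were 453 to 1125 against 1307 to 1828 CPM at 7 days and 985 to 1187 against 1524 to 1735 CPM at 5 months. Villus enterocyte sums were 32407 to 44338 CPM in acute DKO against 24766 to 38970 CPM in acute control libraries, and 40127 to 43388 against 31188 to 42691 CPM at 5 months. Their 12 genes did not all move alike. At each time 1 was called higher, Slc5a1 (0.63) at 7 days and Ada (0.74) at 5 months. Treh (-0.88 and -0.77) was called lower at both. The part of these shifts in the class I values was not tested.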

How the data were processed

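Poly(A) libraries were made with a NEBNext Ultra kit, per the labels' protocols. Build mm9 and the tools STAR, featureCounts 1.6.2, DESeq2, SAMtools 1.9, FastQC 0.11.5 and bedtools 2.27.1 appear, with no roles, per the submitters' processing notes. The strand setting of the counting is not stated in the sources used here, and overlapping genes may share reads. The authors deposited 1 table per time with CPM per library, which have the same sum in each, beside DESeq2 columns. Those columns hold a log2 fold change with its error and a p-value with its adjusted value, per the file headers, and 6 columns of each table were not used. Of the acute gene names, 24 had become dates and 2 were repeated; no member is among them.

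CPM were tested as log2(CPM + 1) with limma-trend (limma 3.58.1, R 4.3.3) for each time alone, with no covariate, on genes with at least 0.5 CPM in at least 5 acute or 3 prolonged libraries, with Benjamini-Hochberg adjustment over all genes tested. The change between times was a contrast of 4 group means. Low CPM values step by what 1 read is worth in their library, and dividing by that step gave whole reads (within 0.01) throughout, which were tested with edgeR 4.0.16 and DESeq2 1.42.0 as alternatives; in prolonged control 3 the step is almost a power of 10, so the recovery is less certain there. The fits were tested on simulated data with larger changes than most members showed and with no outlying library. That check does not cover changes as small as most of those given here. The range of reads in genes of each group is given in the report. All 44 pairs of libraries of a group differed by a mean chi-square per gene of 6.14 to 139, far above sampling noise, so none was counted as a duplicate. In the labels the groups share replicate numbers. Same-numbered libraries did not deviate together (r from -0.202 to 0.198 at 7 days and -0.24 to -0.158 at 5 months), so the numbers were not used as pairs.

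All 10 members are named with every library. Of each list at most 4 called genes per direction and time are named, with the largest fold changes, plus Kdm6a, Kdm6b, Psmb5, Psmb6, Psmb7, Irf1, Rfx5 and Ciita; 1 further gene of this rule is not reported here. The members and lists were chosen with earlier results of these data known. Promoters come from RefSeq on GRCm38.p6, another build than the counting, so no gene coordinates are given.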

Additional observations from a re-analysis of the deposited data

Results flagged for a closer look

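The 10 class I genes, the 2 targeted genes and the 3 subunit ratios gave 45 sets of values, 1 for each group of 4 to 10 libraries. They were searched for a library far from the rest, and 2 were found, about what chance gives at 1 in 20. Tap1 in acute DKO 4, at 293 CPM (292.99), was far above the next DKO library at 195.6 CPM, the gap being 0.701 of the range of the group. Psmb9 in the same library, at 217 CPM (216.94), was above the next at 157 CPM, a gap of 0.575 of the range. Tap1 and Psmb9 are divergent neighbours, and neither passed the acute test with or without this library.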

How the results depend on the processing

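All 10 members had a positive fold change under all 25 acute and all 19 prolonged fitted settings. H2-K1 was called in 25 of 25 acute settings. In acute libraries the called genes were 394 higher and 1641 lower (19.4% higher) as reported, and 38.5% were higher with TMM-scaled CPM, 39.6% with size factors, 38.2% with edgeR and 46.5% with DESeq2. Leaving out 1 library gave 1222 to 2186 called genes at 7 days (1222 without control 3, 1344 without control 4) and 1028 to 1705 at 5 months (1028 without control 3). Members called higher were then 2 to 5 at 7 days and 6 to 8 at 5 months. The animal-number blocks, and leaving out acute DKO 3 and 4 together, each left 2 acute members. The robust fit with library weights called 3090 prolonged genes and also B2m (limma adjusted p = 0.0228). Tapbp at 5 months was called in 6 of 19 settings. With the replicate block, which did not pair the libraries, 947 acute genes (119 higher) and 1 acute member (H2-K1), and 528 prolonged genes (167 higher) and 6 prolonged members, were called.

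For the change between times, where 0 genes were called, there were 4 with a pseudocount of 4, 5 without the filter, 8 with DESeq2, 9 with the robust fit, 2 with the animal-number blocks, 20 from separate fits and 0 to 1 without 1 library; no member was called under these. Small differences changed sign. H2-K1 was -0.052 with TMM, -0.055 with size factors, -0.053 with edgeR, -0.064 with DESeq2 and -0.030 with the replicate block, and -0.052 to 0.13 without 1 library. H2-D1 was -0.030, -0.033, -0.033, -0.043 and -0.040 in the same order, and -0.021 to 0.13 without 1 library (-0.021 without acute control 5, -0.0090 without acute control 1). Psmb10 was -0.014, -0.017, -0.013 and -0.023 with the first 4, and B2m was 0.020 without acute DKO 3 and 4. Within the run of acute control 1, B2m was -0.065, Tap1 -0.66, Psmb8 -0.32, Psmb9 -0.47, Psmb10 -0.14 and Nlrc5 -0.24. The cause of these changes was not tested. With 3 prolonged controls and wide acute spread, the 95% intervals given are the limit of what could be seen.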
